A study of Mus musculus with 9 samples.

Results

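The nuclear-encoded subunits of the mitochondrial respiratory chain were followed complex by complex in mouse gastrocnemius, the large calf muscle. Members were the genes whose symbols mark them as subunits of NADH dehydrogenase (complex I), succinate dehydrogenase (complex II), the cytochrome bc1 complex (complex III), cytochrome c oxidase (complex IV) or ATP synthase (complex V). Of 15593 gene symbols in the deposited table, 82 matched, and all 82 were above 0 in all 9 libraries. Complex I had 37 members, complex II 4, complex III 8, complex IV 15 and complex V 18. By its title the study asked what androgen receptor agonists do in models of Duchenne muscular dystrophy, the muscle-wasting disease caused by loss of dystrophin. Polyadenylated RNA was sequenced on an Ion Torrent Proton in 3 groups of 3 libraries. Wildtype mice on vehicle made up the first group, mdx mice on vehicle the second, and mdx mice dosed subcutaneously with GTx-026, the agonist under study, at 10 mg/kg the third. Mdx mice inherit a premature stop in Dmd, which encodes dystrophin. All libraries, mdx included, were labelled C57BL/6, and age and length of treatment are not given in the sources used here. By the design each group came from 3 animals, yet no label links a particular animal to a particular library. The p-values therefore measure the spread between libraries, and library numbers serve only as names, with no pairing across groups.

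The respiratory chain sits in the inner mitochondrial membrane. Complexes I and II pass electrons from NADH and succinate to ubiquinone, complex III passes them on to cytochrome c, complex IV passes them to oxygen, and complex V uses the proton gradient that complexes I, III and IV build to make ATP. A few catalytic subunits are encoded in mitochondrial DNA and the rest, described here, in the nucleus, where many of them are controlled together by the coactivator PGC-1α and by the factors NRF1, GABP, ERRα and YY1. In muscle these genes are most active in slow and oxidative fibres. Complex IV is known for subunits that come in a muscle form and a widely expressed form.

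The symbol rule has edges. It took in Atp5s and Atp5sl, which are named for ATP synthase but encode mitochondrial proteins that are not standard subunits, and Cox7a2l, which encodes an assembly factor of respiratory supercomplexes. Ndufa4, which carries a complex I name, encodes a protein now placed in complex IV. It left out Cyc1, the cytochrome c1 subunit of complex III, which is described with the other genes of the pathway. No mitochondrially encoded subunit was found in the table by the symbols searched. Levels are given as CPM, a gene's deposited signal scaled to its library's total with a correction between libraries, always in the order of libraries 1 to 3 of a group. Differences are log2 fold changes on the log2(CPM + 1) scale. Isoform shares are per length, and a rank by CPM is not a rank per length.

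The estimated reads listed per library were 25.1 M to 38.0 M. The listed fast-fibre genes, such as the fast myosins and troponins, were all measured, 10 of 10, and summed to 112300 to 207700 CPM in the 9 libraries. Dmd was at 41.4, 60.1 and 51 CPM in the wildtype libraries, 11.4, 21.7 and 21.7 in mdx vehicle, and 17.6, 14.2 and 18 with GTx-026. Both mdx groups lay below all the wildtype libraries. The mdx vehicle library 1 also stood apart outside the subunits, though it was singled out with earlier results of these data known. Its slow-fibre genes, such as Myh7, the slow myosin, had a median of −3.05 as a log2 difference from wildtype, and the other 8 libraries lay between −1.71 and 1.77. Its scaling factor, 1.303, was the highest, the other 8 lying between 0.874 and 1.08. The complex medians and the counts of members are also given without that library. So are the log2 fold changes printed for single genes, where they change sign or move by more than 1.5 times without it. Genes described by CPM alone can move as much. Without mdx vehicle library 1 the log2 fold change in mdx vehicle went from −0.229 to −0.004 for Sdhc. It went from −0.29 to −0.023 for Cox4i1 and from −0.201 to 0.273 for Ppargc1a.

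In mdx vehicle muscle the subunits of all 5 complexes lay below wildtype vehicle at the median. The median log2 fold change was −0.28 for complex I, −0.41 for complex II, −0.30 for complex III, −0.26 for complex IV and −0.28 for complex V (n = 3 libraries a group), where the median of all 15372 tested genes was 0.01. Lower in mdx vehicle were 35 of 37 members of complex I, 4 of 4 of complex II, 7 of 8 of complex III, 12 of 15 of complex IV and 17 of 18 of complex V. None of these shifts was a call on a single gene. By limma with Benjamini-Hochberg adjustment over all tested genes, 0 of 82 members passed the threshold of 0.05, where 0.488% of all genes did (0.28% higher and 0.208% lower), and the lowest adjusted p among members was 0.27, for Cox6a2. At an unadjusted p under 0.05 there were 5 members, against 12.9% of all genes. Ndufs6 was the 1 member whose mdx vehicle libraries lay wholly below wildtype, where 8.57% of all genes did so, and 0 members lay wholly above, where 8.11% did.

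The mdx vehicle libraries were uneven. Over all 82 members the median log2 difference from the wildtype mean was −0.15, −0.10 and 0.24 in wildtype vehicle libraries 1 to 3, −0.65, 0.11 and −0.31 in mdx vehicle, and −0.15, 0.05 and −0.02 in mdx GTx-026. Libraries 1 and 3 of mdx vehicle were thus the lowest of the 9, and library 2 was higher than all but wildtype vehicle library 3. In mdx vehicle library 1, 71 of 82 members had their lowest value of the 9 libraries, where 3724 of 15372 genes did, and 76 lay below the lowest wildtype library, where 5691 of 15372 genes did. In mdx vehicle library 2, 3 members lay below the lowest wildtype library, where 24.6% of all genes did, and 24 (29.3%) lay above the highest, where 25% of all genes did. In mdx vehicle library 3, 55 members (67.1%) lay below the lowest wildtype library, where 28.3% of all genes did. The highest value of the 9 libraries was in wildtype vehicle library 3 for 50 members and in mdx vehicle library 2 for 20.

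**Figure D1:**
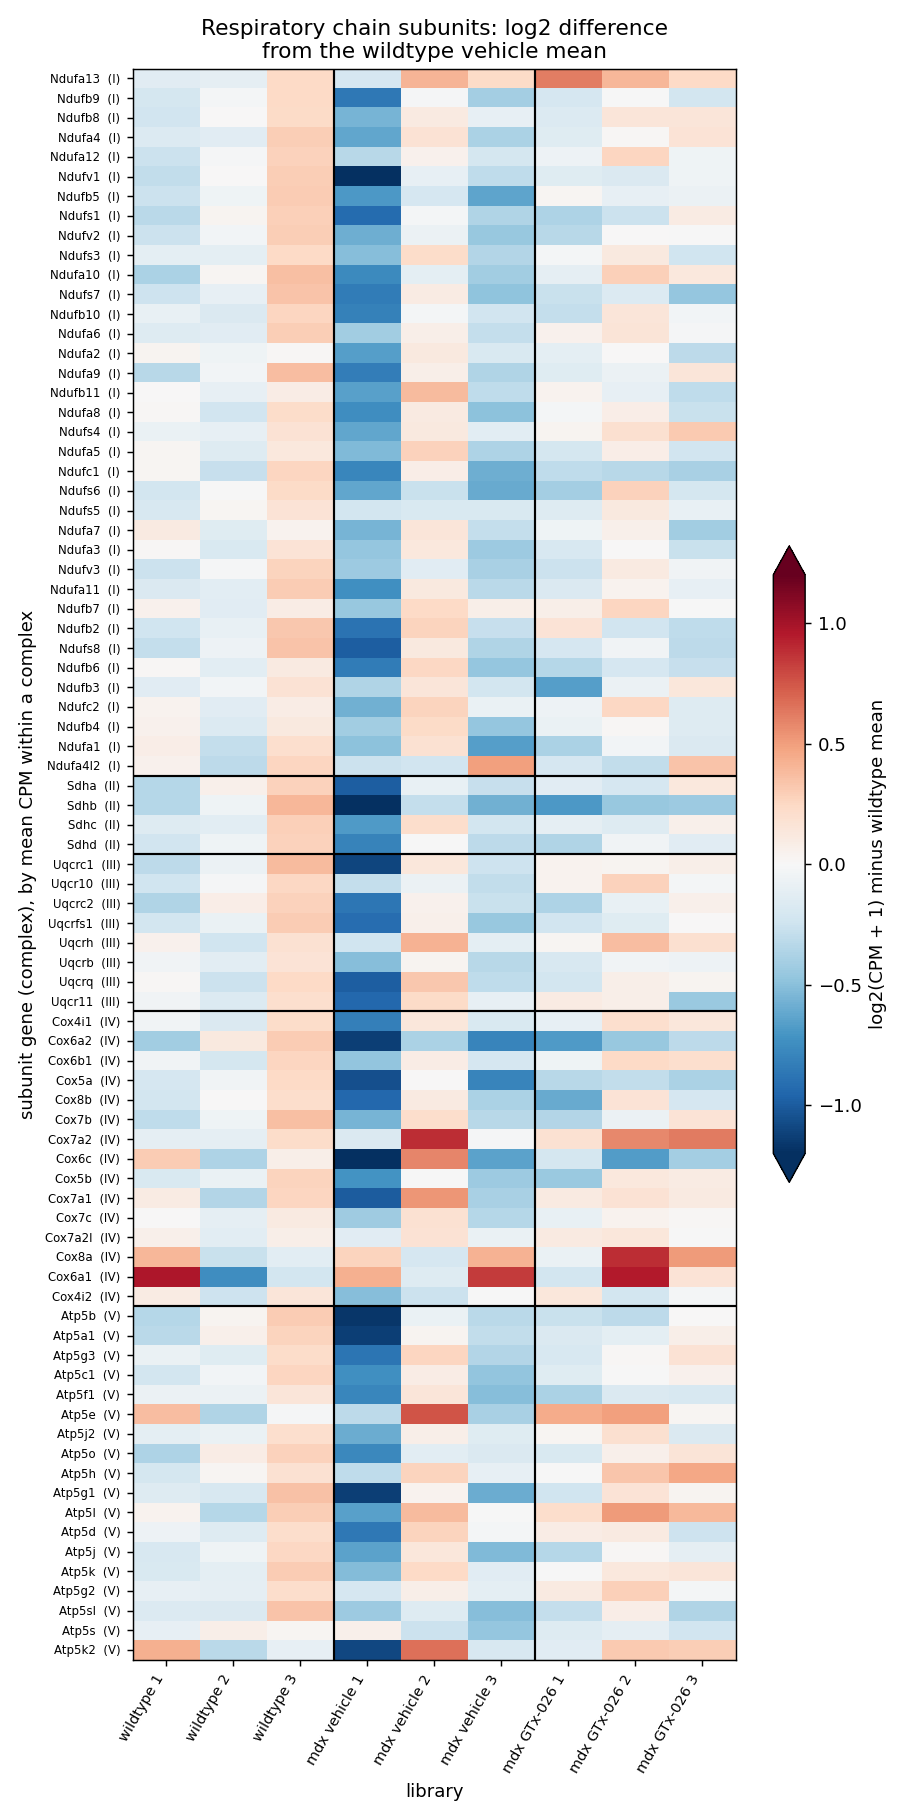
Log2 difference of 81 of the 82 subunit genes (rows, by complex and by mean CPM within it) from its wildtype vehicle mean, in each of the 9 libraries (columns). The mdx vehicle library 1 is blue in nearly all rows, at a median of −0.65, and mdx vehicle library 2 is pale red in most, at 0.11.

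In each complex mdx vehicle library 1 was the lowest and library 2 the highest of its group. In mdx vehicle library 1 the median was −0.62 for complex I, −0.90 for complex II, −0.89 for complex III, −0.56 for complex IV and −0.69 for complex V. In mdx vehicle library 2 the medians were 0.12, −0.05, 0.10, 0.10 and 0.11 in the same order, and in mdx vehicle library 3 they were −0.35, −0.30, −0.28, −0.33 and −0.31. Whether the complexes differed from each other was not tested. Without mdx vehicle library 1 the median log2 fold change from wildtype was −0.11 for complex I, −0.17 for complex II, −0.08 for complex III, −0.06 for complex IV and −0.09 for complex V, with 61 of 82 members lower and 21 higher. In that fit 0 members passed by limma and 2 had an unadjusted p under 0.05, against 10.9% of all genes. Without mdx vehicle library 2 the medians went the other way, to −0.48, −0.60, −0.54, −0.45 and −0.47, with 0 members called and 43 at an unadjusted p under 0.05, against 18.5% of all genes. Without wildtype vehicle library 3 they were −0.18, −0.275, −0.20, −0.16 and −0.21.

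**Figure D2:**
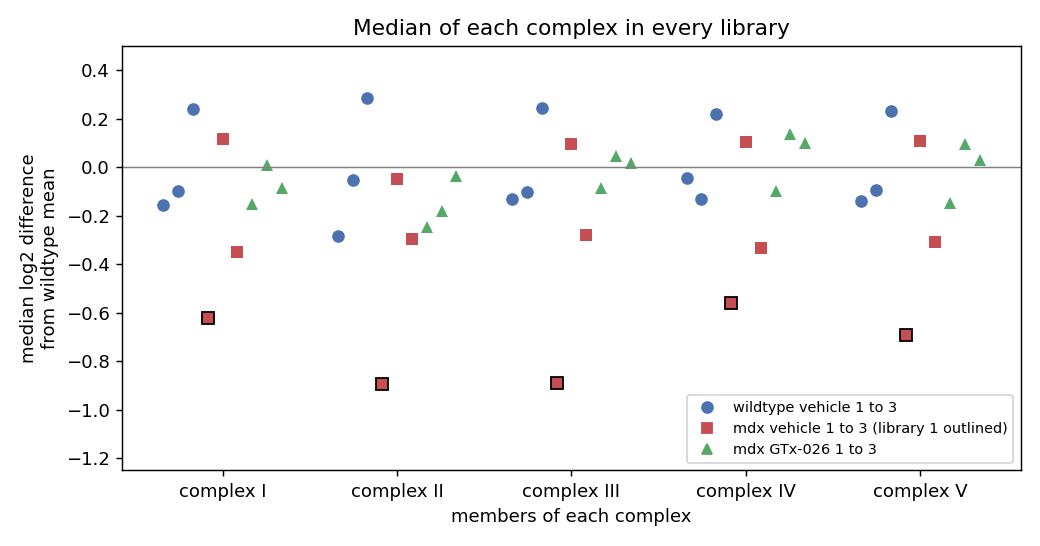
Median log2 difference from the wildtype vehicle mean over the members of each complex, 1 point per library. In all 5 complexes the outlined mdx vehicle library 1 is the lowest point (−0.56 to −0.90) and the other mdx vehicle libraries lie between −0.35 and 0.12.

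The scaling of the libraries moved these values together with those of all genes. With the deposited scaling in place of the rescaling, the median of all genes in mdx vehicle against wildtype vehicle shifted to 0.15, and the complex medians became −0.10, −0.24, −0.12, −0.11 and −0.13 for complexes I to V. In mdx vehicle library 1 the members then lay at −0.20 and all genes at 0.36, so the gap between members and all genes was −0.56. By that scaling the lowest member median of the 9 was in mdx vehicle library 3 (−0.26, with all genes at 0.04). The mdx GTx-026 library 1 followed (−0.21, with all genes at −0.055). The place of mdx vehicle library 1 as the lowest by member median thus depends on the rescaling. Its gap from all genes was still the lowest of the 9, against −0.303 in mdx vehicle library 3 and −0.158 in mdx GTx-026 library 1. Marker lists of fibre types and other cells also differed between libraries. The slow-fibre list, 10 of 10 measured, summed to 2383 to 14120 CPM in wildtype vehicle and 669 to 11320 in mdx vehicle. With GTx-026 it summed to 1743 to 18520 CPM. The lowest sum of the 9 was in mdx vehicle library 1. The highest sums were in mdx GTx-026 library 3 and wildtype vehicle library 2, where rescaled member medians were −0.015 and −0.102. In mdx vehicle 8 of these 10 genes lay below wildtype (median −0.376, or 0.999 without mdx vehicle library 1). Of the fast-fibre list 9 of 10 did so (median −0.315, or −0.144), with 0 called in either list. The macrophage list, 11 of 13 measured, summed to 55 to 149.5 CPM in wildtype vehicle and to 406 to 603 with GTx-026. In mdx vehicle it summed to 151 to 709 CPM, highest in library 1 and lowest in library 2. By the list median as a log2 difference from wildtype, mdx vehicle library 3 was highest (2.115). The mdx vehicle library 1 stood at 1.56 and the GTx-026 libraries at 1.65 to 1.99. All 11 were higher in mdx vehicle, and 1 passed by limma, Lgals3 (3.81, adjusted p = 0.0287), at 7.52, 5.23 and 3.24 CPM in the wildtype libraries, 189, 27.5 and 114 in mdx vehicle, and 66.8, 90.3 and 98.4 with GTx-026. Of the endothelial markers 8 of 8 were lower in mdx vehicle (median −0.43) and of the mural markers 6 of 9 (−0.18, which turned to 0.07 without mdx vehicle library 1), with 0 called in either. The part of fibre type or of other cells in the subunit values was not tested. In bulk muscle, fewer fibres of a type and less RNA per fibre cannot be told apart.

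Complex I is the largest of the complexes, with a core that binds NADH and hands electrons to ubiquinone and a shell of accessory subunits. Summed over its members, it stood at 8053 ± 1280.0 CPM in wildtype vehicle, 6718 ± 1707 in mdx vehicle and 7871 ± 318 with GTx-026 (SD, n = 3). Ndufv1, the core subunit that carries the NADH site (chr19:4007384-4012806, GRCm38), was at 297, 366 and 450.3 CPM in the wildtype libraries, 149.9, 341 and 295 in mdx vehicle, and 329.8, 325 and 353 with GTx-026. It had the lowest fold change of the complex in mdx vehicle (−0.57, SE 0.29; limma adjusted p = 0.445), and −0.21 without mdx vehicle library 1.

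Among accessory subunits, Ndufb9 was at 377, 429 and 515 CPM in the wildtype libraries, 239.7, 432 and 329.7 in mdx vehicle, and 378, 436 and 374 with GTx-026. Its mdx vehicle libraries overlapped wildtype only through library 2. Ndufc1, a small membrane subunit, was at 159, 129.6 and 187 CPM in the wildtype libraries, 90.8, 166 and 104 in mdx vehicle, and 126, 124 and 119 with GTx-026, so that all the GTx-026 libraries lay below all the wildtype ones. Ndufa10, a subunit of the membrane arm on the matrix side (chr1:92439010-92473860, GRCm38), was at 206, 273 and 346 CPM in the wildtype libraries, 158, 247 and 201 in mdx vehicle, and 250.2, 329 and 294 with GTx-026. Here the GTx-026 libraries lay wholly above mdx vehicle (0.54, SE 0.23; limma unadjusted p = 0.0414, adjusted p = 0.9996), and without mdx vehicle library 1 the difference was 0.37. Ndufa13, also known as GRIM-19, was at 357, 365 and 464 CPM in the wildtype libraries, 341, 521 and 460.1 in mdx vehicle, and 602, 518 and 463 with GTx-026. It was 1 of the 2 members of complex I that did not lie below wildtype in mdx vehicle, and was higher in both mdx groups than in wildtype (0.15 in mdx vehicle, or 0.32 without its library 1, and 0.42 in mdx GTx-026, adjusted p = 0.449). The annotation places Ndufa13 within Yjefn3 on the same strand. Of the short sequence words of Ndufa13, 1.4% occur in other genes, and the gene sharing most is Gm12389 (1.4%). Whether reads from Yjefn3 add to the level of Ndufa13 was not tested.

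Ndufb5 and Ndufs6, accessory subunits named because they were 2 of the 5 members at an unadjusted p under 0.05 in mdx vehicle, were chosen after their values were seen. Ndufb5 was at 278, 321 and 409 CPM in the wildtype libraries, 206, 288 and 214 in mdx vehicle, and 337, 310.2 and 316 with GTx-026 (−0.51 in mdx vehicle, limma unadjusted p = 0.0229, adjusted p = 0.314). Its GTx-026 libraries lay wholly above mdx vehicle (0.46, unadjusted p = 0.0352). Ndufs6, which is needed to finish the NADH-binding module, was at 125, 145 and 171 CPM in the wildtype libraries, 94.2, 121 and 95.5 in mdx vehicle, and 109, 177 and 125 with GTx-026 (−0.50 in mdx vehicle, adjusted p = 0.352). The mdx vehicle libraries lay below wildtype, by a margin of 120.6 against 125 CPM, and the value without mdx vehicle library 1 was −0.44. Ndufa4 was at 318, 325 and 439 CPM in the wildtype libraries, 231, 404 and 273 in mdx vehicle, and 322, 360.5 and 399 with GTx-026. Its hypoxia-linked paralogue Ndufa4l2 was at 6.27, 4.65 and 7.35 CPM in the wildtype libraries, 4.87, 4.98 and 8.85 in mdx vehicle, and 5.08, 4.69 and 7.85 with GTx-026. The other members of complex I had log2 fold changes in mdx vehicle within the range of −0.57 to 0.15 that these genes span.

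Complex II oxidises succinate and is also an enzyme of the tricarboxylic acid cycle. It had the lowest median of the 5 complexes, and all 4 of its genes were at their lowest in mdx vehicle library 1 and at their highest in wildtype vehicle library 3. Sdha, the flavoprotein that binds succinate, was at 671, 887 and 1029 CPM in the wildtype libraries, 426, 797 and 699 in mdx vehicle, and 773, 738 and 926 with GTx-026. Sdhb, the iron-sulphur subunit (chr4:140961203-140979193, GRCm38), was at 475, 581 and 798 CPM in the wildtype libraries, 217, 495 and 405 in mdx vehicle, and 374, 440.4 and 448 with GTx-026. Sdhb had the lowest log2 fold change of all 82 members in mdx vehicle (−0.78, SE 0.31; limma unadjusted p = 0.0298, adjusted p = 0.343), and −0.43 without mdx vehicle library 1. Its GTx-026 libraries also lay wholly below wildtype (−0.53, adjusted p = 0.554). Sdhc, 1 of the pair of membrane anchors, was at 245, 249.5 and 333 CPM in the wildtype libraries, 170.2, 316 and 234 in mdx vehicle, and 253, 245 and 285 with GTx-026. Sdhd, the other anchor, ranged from 128 to 271 CPM over the 9 libraries, with log2 fold changes of −0.37 in mdx vehicle and −0.16 without its library 1. The summed level of complex II was 1982 ± 427, 1430.0 ± 451 and 1692 ± 150 CPM in wildtype vehicle, mdx vehicle and mdx GTx-026 (SD, n = 3).

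Complex III takes electrons from ubiquinol to cytochrome c. Uqcrc1, a core protein (chr9:108936633-108949623, GRCm38), was at 525, 622 and 848 CPM in the wildtype libraries, 304, 716 and 550.2 in mdx vehicle, and 669, 666 and 686 with GTx-026. Its GTx-026 values sat within 21 CPM of each other, while mdx vehicle libraries 1 and 2 differed by more than 400 CPM. Uqcrc2, the other core protein, was at 276, 376 and 430.0 CPM in the wildtype libraries, 194, 368 and 294 in mdx vehicle, and 274, 334 and 369 with GTx-026. Uqcrfs1, the Rieske iron-sulphur protein that carries the electron, was at 291, 321 and 421 CPM in the wildtype libraries, 179.5, 354 and 247 in mdx vehicle, and 290.5, 308 and 342 with GTx-026, with the lowest log2 fold change of the complex in mdx vehicle (−0.44; −0.20 without mdx vehicle library 1). Among the small subunits, Uqcr10 was at 279, 326 and 393 CPM in the wildtype libraries, 270.4, 314 and 269 in mdx vehicle, and 340.2, 400.3 and 325 with GTx-026, and its GTx-026 libraries lay wholly above mdx vehicle (0.32, limma unadjusted p = 0.0909; 0.28 without mdx vehicle library 1). Uqcrb was at 285, 269 and 329 CPM in the wildtype libraries, 206, 301 and 232 in mdx vehicle, and 257, 284 and 280.3 with GTx-026, but 25.4% of its 50-base words occur in other genes. Uqcrh, the hinge protein, was at 286, 233 and 312 CPM in the wildtype libraries, 233, 368 and 254 in mdx vehicle, and 279, 356 and 315 with GTx-026. It was the 1 member of complex III with a positive log2 fold change in mdx vehicle (0.02; 0.15 without mdx vehicle library 1). The summed level of the complex was 2799 ± 474, 2335 ± 703 and 2761 ± 144 CPM in the same order of groups.

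Complex IV reduces oxygen. Its core is encoded in mitochondrial DNA, and the nuclear subunits surround it. Cox4i1, the largest of these and the common form of subunit 4, was at 582, 531 and 699 CPM in the wildtype libraries, 338, 658 and 529.5 in mdx vehicle, and 560.0, 691 and 660.5 with GTx-026. Its paralogue Cox4i2, known from lung and hypoxia, was at 3.53, 2.56 and 3.68 CPM in the wildtype libraries, 1.96, 2.54 and 3.21 in mdx vehicle, and 3.63, 2.63 and 3.16 with GTx-026. Cox6b1 was at 348, 310.2 and 428 CPM in the wildtype libraries, 258, 381 and 312 in mdx vehicle, and 346, 422 and 413 with GTx-026. Both Cox4i1 and Cox6b1 were lowest in mdx vehicle library 1. Cox7b was at 211, 252 and 337 CPM in the wildtype libraries, 177, 302 and 207 in mdx vehicle, and 205, 249.5 and 292 with GTx-026. Cox5a, another of the 5 genes at an unadjusted p under 0.05 in mdx vehicle and named for that after its values were seen, was at 335, 374 and 456 CPM in the wildtype libraries, 186, 386 and 223 in mdx vehicle, and 307, 315 and 296 with GTx-026 (−0.61, limma adjusted p = 0.355; −0.39 without mdx vehicle library 1). Its GTx-026 libraries lay wholly below wildtype, at a log2 fold change of −0.33. The summed level of complex IV was 3709 ± 519, 2967 ± 913 and 3445 ± 359 CPM in wildtype vehicle, mdx vehicle and mdx GTx-026.

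The isoform pairs of complex IV were set side by side per kilobase of exon. Cox6a2, the muscle form of subunit 6a (chr7:128205435-128206387, GRCm38), was at 544, 788 and 899 CPM in the wildtype libraries, 332, 561 and 420.3 in mdx vehicle, and 454, 532 and 585 with GTx-026. It had the lowest adjusted p of any member in mdx vehicle (−0.77, SE 0.25; limma unadjusted p = 0.0129, adjusted p = 0.27). The value was −0.58 without mdx vehicle library 1. In mdx GTx-026 it was −0.48 against wildtype. The highest mdx vehicle library, at 561 CPM, was above the lowest wildtype library, at 544 CPM, so the groups overlapped. The widely expressed form Cox6a1 was at 63.5, 18.7 and 27.3 CPM in the wildtype libraries, 43.5, 28.6 and 58 in mdx vehicle, and 27.3, 62.9 and 35.9 with GTx-026. Cox6a1 had the highest log2 fold change of all members in mdx vehicle (0.37), with an SE of 0.45 that exceeds it. Per kilobase, Cox6a2 made up 93.9% ± 5.26 of the pair in wildtype vehicle, 88.9% ± 4.67 in mdx vehicle and 91.4% ± 3.23 in mdx GTx-026 (SD, n = 3).

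For subunit 7a neither form dominated. Cox7a1, the muscle form, was at 145, 106 and 163 CPM in the wildtype libraries, 67.6, 196 and 103 in mdx vehicle, and 146, 154 and 147 with GTx-026, and Cox7a2, the widely expressed form, was at 141, 140.5 and 177 CPM in the wildtype libraries, 134, 281 and 151 in mdx vehicle, and 173, 226 and 235 with GTx-026. The share of Cox7a1 per kilobase was 55.9%, 48.2% and 53.1% in wildtype vehicle, 38.3%, 46.2% and 45.8% in mdx vehicle, and 51.1%, 45.5% and 43.5% in mdx GTx-026. Wildtype and mdx vehicle did not overlap, with or without mdx vehicle library 1. The difference in the log2 ratio was −0.52 (exact permutation test, two-sided, p = 0.1, the smallest that 3 against 3 libraries allow; 0.45 after Benjamini-Hochberg adjustment over 9 isoform comparisons). For subunit 8 the muscle form Cox8b was at 299, 351 and 404 CPM in the wildtype libraries, 181, 375 and 267 in mdx vehicle, and 229, 391 and 304 with GTx-026, and the widely expressed form Cox8a was at 48.6, 30.2 and 33.6 CPM in the wildtype libraries, 44.5, 31.9 and 49.2 in mdx vehicle, and 34.7, 68.6 and 52.8 with GTx-026. Cox8b made up 93.3% ± 2.52, 90.0% ± 4.35 and 90.2% ± 0.713 of the pair in the 3 groups. For subunits 6a and 8 the lowest exact p was 0.2, with groups that overlapped. Cox4i2 made up 0.485% to 0.520% of subunit 4 in the group means, and Ndufa4l2 1.07% to 1.44% of its pair with Ndufa4. Cox6b2, Cox7b2 and Cox8c were not analysed here.

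**Figure D3:**
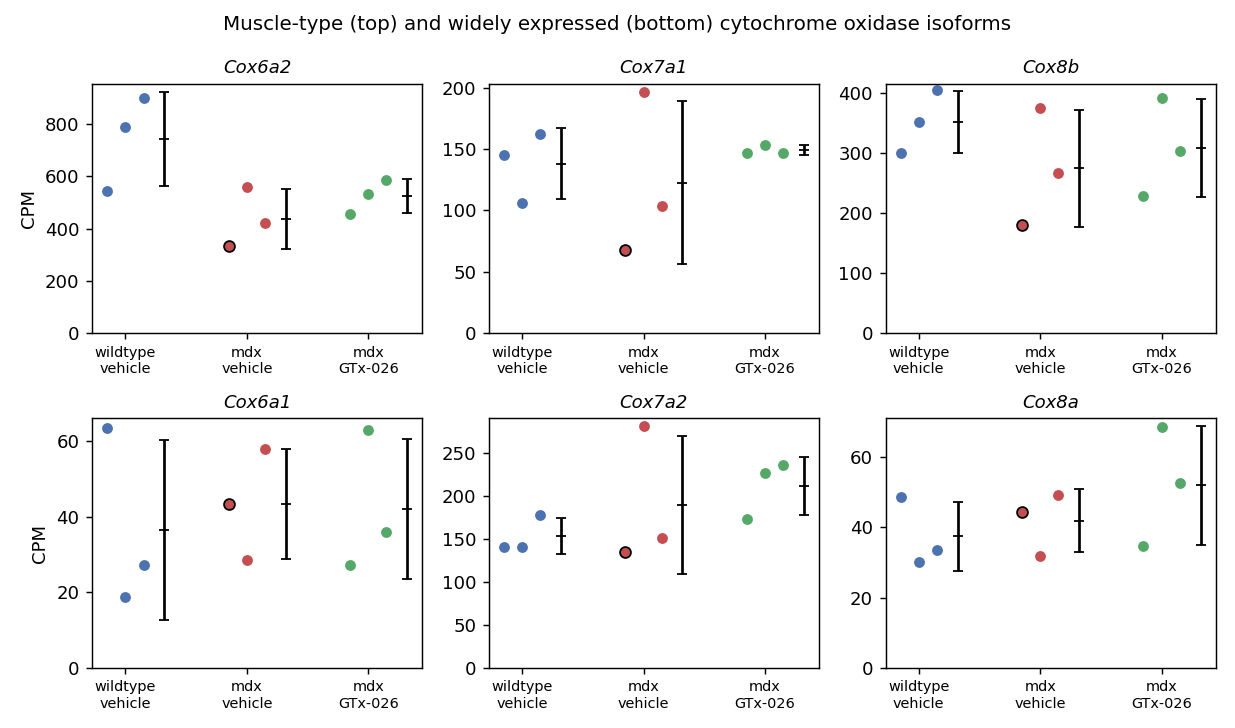
CPM of the muscle-type (top row) and widely expressed (bottom row) subunits 6a, 7a and 8 of complex IV, 1 point per library, with the mean and SD of each group (n = 3). The muscle forms reach their lowest values in the outlined mdx vehicle library 1 (332, 67.6 and 181 CPM). So does the widely expressed Cox7a2 (134 CPM), and Cox6a1 and Cox8a do not.

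Cox6a1 and Cox8a followed another order of libraries. In each group the highest value of both was in the same library, library 1 of wildtype vehicle, library 3 of mdx vehicle and library 2 of mdx GTx-026. The adipocyte markers measured, 5 of 7 (Adipoq, Plin1, Fabp4, Cfd and Retn, with Lep and Cidec not tested), summed to 1753, 110.5 and 152 CPM in the wildtype libraries, 152, 108 and 852 in mdx vehicle, and 219, 965 and 341 with GTx-026. Those 3 libraries had the highest sums of the 9. The mdx vehicle library 1 had Cox6a1 at 43.5 CPM, Cox8a at 44.5 CPM and an adipocyte sum of 152 CPM, so it was high in the subunits and not in the markers. In that library Cd52, the 1 of 9 listed lymphoid genes that was measured, was at 110.2 CPM, against 0.982 to 37.8 CPM in the other 8. The part of these cells in the levels of Cox6a1 and Cox8a was not tested.

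**Figure D4:**
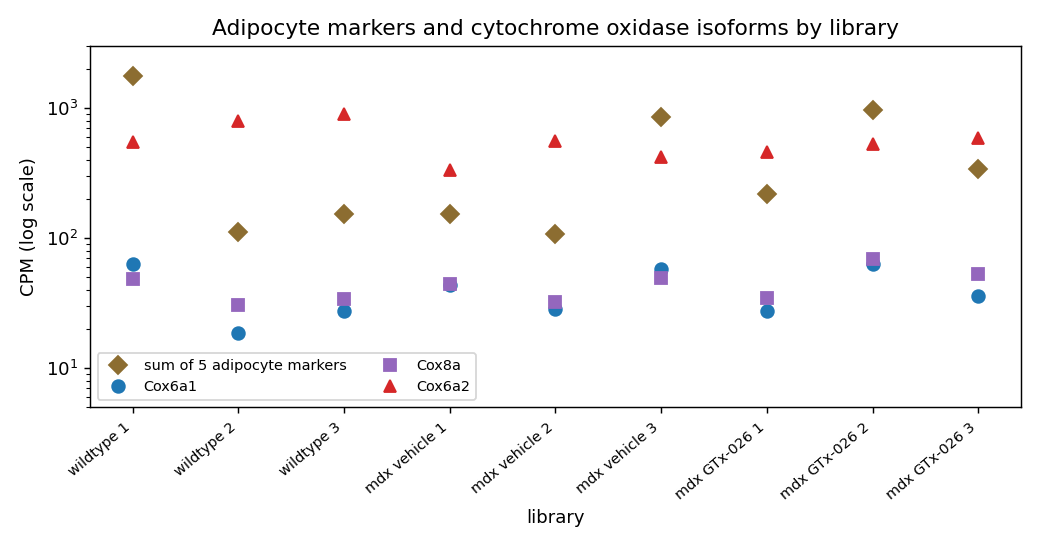
CPM on a log axis of 3 complex IV subunits and of the sum of 5 adipocyte markers in each library. The marker sum is highest in wildtype vehicle library 1 (1753 CPM), where Cox6a1 is also at its highest (63.5 CPM) and Cox8a is at 48.6 CPM. Cox8a is highest in mdx GTx-026 library 2 (68.6 CPM), and Cox6a2 does not follow the order of the marker sum.

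Complex V, ATP synthase, has a catalytic head in the matrix and a rotor and stalks that couple it to the proton gradient. It held the members with the highest CPM. Atp5b, the catalytic β subunit (chr10:128083273-128090391, GRCm38), was at 2296, 2989 and 3600.0 CPM in the wildtype libraries, 1300.0, 2763 and 2323 in mdx vehicle, and 2424, 2346 and 2917 with GTx-026. Atp5a1, the α subunit, was at 1352, 1764 and 2046 CPM in the wildtype libraries, 776, 1738 and 1386 in mdx vehicle, and 1505, 1564 and 1776 with GTx-026. In both, mdx vehicle library 1 stood below the other 8 libraries, and their log2 fold changes of −0.52 and −0.46 in mdx vehicle became −0.20 and −0.13 without it. Atp5e, the ε subunit of the central stalk, was at 482, 289.5 and 367 CPM in the wildtype libraries, 299, 629 and 283 in mdx vehicle, and 507, 524 and 378 with GTx-026, with its highest value in mdx vehicle library 2. It was the 1 member of complex V with a positive log2 fold change in mdx vehicle (0.02; 0.18 without mdx vehicle library 1). Atp5f1, subunit b of the peripheral stalk, was at 454, 454 and 526 CPM in the wildtype libraries, 277, 527 and 335 in mdx vehicle, and 366, 423 and 417 with GTx-026, and its GTx-026 libraries lay wholly below wildtype (−0.25, limma adjusted p = 0.75). Atp5l, subunit g, which sits where ATP synthases pair up, was at 308, 235 and 365 CPM in the wildtype libraries, 189, 389 and 296 in mdx vehicle, and 344, 424 and 391 with GTx-026. It had the highest log2 fold change of the complex in GTx-026 against wildtype (0.37). The summed level of the complex was 9503 ± 1567, 7567 ± 2467 and 9125 ± 579 CPM in the 3 groups.

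The c subunit, whose ring turns as protons pass, is encoded by 3 genes that give the same mature protein. Atp5g3 was at 578, 550.0 and 710.0 CPM in the wildtype libraries, 332, 727 and 477 in mdx vehicle, and 531, 616 and 685 with GTx-026. Atp5g1, the form known to follow mitochondrial activity, was at 341, 334 and 485 CPM in the wildtype libraries, 173, 392 and 251 in mdx vehicle, and 323, 427 and 389.6 with GTx-026. Its log2 fold change was −0.56 in mdx vehicle (SE 0.29; limma adjusted p = 0.444) and 0.55 in GTx-026 against mdx vehicle, or −0.28 and 0.27 without mdx vehicle library 1. Atp5g2 was at 149, 148 and 185 CPM in the wildtype libraries, 139, 168 and 148 in mdx vehicle, and 172, 195 and 157 with GTx-026. Of its 50-base words 38.3% occur elsewhere, mostly in Gm10175, so its level is uncertain. Atp5s, the coupling factor B gene, was low at 10.5, 11.9 and 11.5 CPM in the wildtype libraries, 11.8, 9.26 and 7.88 in mdx vehicle, and 10.0, 10.4 and 9.44 with GTx-026, and was not reduced in mdx vehicle library 1. Without that library its log2 fold change in mdx vehicle was −0.36.

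GTx-026 was then compared with vehicle within mdx mice. At the median the subunits of all 5 complexes were higher in the treated muscle. The median log2 fold change was 0.22 for complex I, 0.22 for complex II, 0.26 for complex III, 0.23 for complex IV and 0.31 for complex V, where the median of all genes was 0.005. Higher were 35 of 37, 4 of 4, 8 of 8, 14 of 15 and 18 of 18 members. By limma with Benjamini-Hochberg adjustment 0 of 82 members passed, where 0.013% of all genes did, all of them higher. At an unadjusted p under 0.05 there were 2 members, Ndufa10 and Ndufb5, against 3.21% of all genes. The groups did not overlap for 4 members, Ndufa10, Ndufb5, Ndufs5 and Uqcr10, all higher, where 3.68% of all genes did so, and 0 members lay wholly lower, where 3.17% did. Ndufs5, a subunit on the intermembrane side that the rule on named genes did not cover, was at 116, 119 and 119 CPM in mdx vehicle and 121, 147 and 127 CPM in mdx GTx-026.

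This comparison and that of mdx vehicle with wildtype share the mdx vehicle libraries, so a low mdx vehicle library lowers the values against wildtype and raises those of GTx-026 against mdx vehicle. Without mdx vehicle library 1 the medians were 0.04 for complex I, −0.04 for complex II, 0.05 for complex III, 0.06 for complex IV and 0.10 for complex V. In that fit 56 of 82 members were higher, 26 were lower, 0 passed by limma, and 0 had an unadjusted p under 0.05, against 3.57% of all genes. Without mdx vehicle library 2 the medians were 0.38, 0.44, 0.43, 0.47 and 0.48, with 0 members called and 29 at an unadjusted p under 0.05, against 5.24% of all genes. Among the GTx-026 libraries, leaving out library 1 gave 0.37 for complex IV, which is more than 1.5 times the value with all libraries. The spread of the complex medians was narrow in the treated group. For complex I the SD over 3 libraries was 0.08 in mdx GTx-026, 0.37 in mdx vehicle and 0.21 in wildtype vehicle, and whether the spread differed was not tested.

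**Figure D5:**
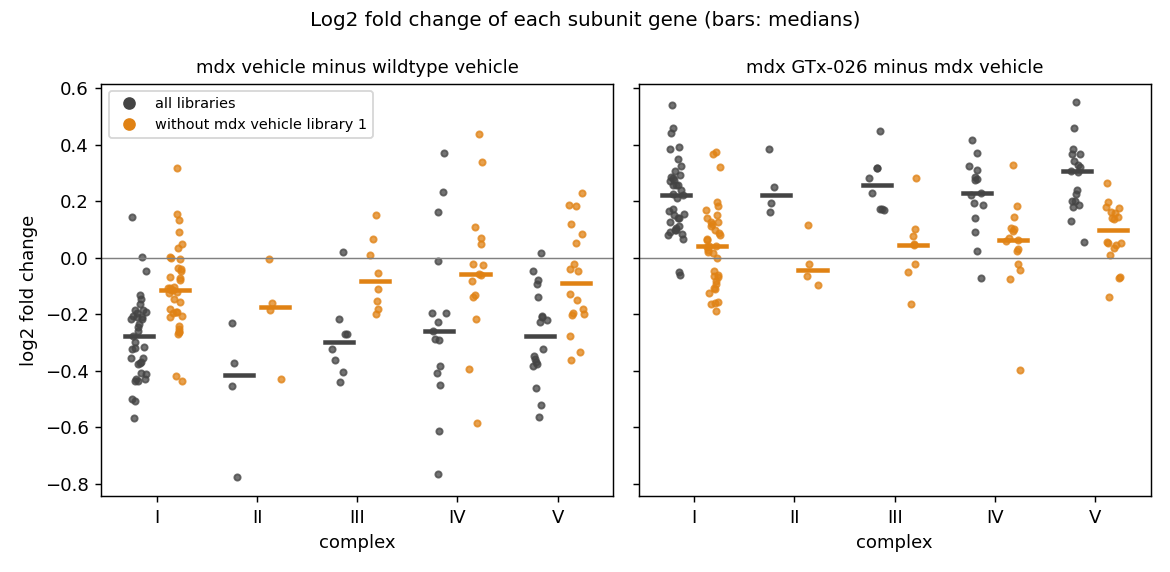
Log2 fold change of each member by complex, for mdx vehicle minus wildtype vehicle (left) and mdx GTx-026 minus mdx vehicle (right), with all libraries (grey) and without mdx vehicle library 1 (orange); bars are medians. Without that library the medians move toward 0, from −0.28 to −0.11 on the left and from 0.22 to 0.04 on the right for complex I.

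Against wildtype vehicle, the subunits of GTx-026-treated mdx muscle showed medians near 0. The median log2 fold changes were −0.07, −0.13, −0.07, −0.01 and −0.01 for complexes I to V, with 28 members higher and 54 lower. With the deposited scaling those of complexes I, III, IV and V turned to 0.04, 0.04, 0.10 and 0.10. All genes moved as well under that scaling. Their library medians were −0.055, 0.174 and 0.163 in mdx GTx-026, and 0.102, −0.081 and −0.031 in wildtype vehicle. By limma with Benjamini-Hochberg adjustment 0 members passed, where 1.65% of all genes did (1.14% higher and 0.507% lower), and 0 had an unadjusted p under 0.05, against 12.7% of all genes. The groups did not overlap for 6 members, all lower in mdx GTx-026, where 9.26% of all genes did so, and 0 were wholly higher, where 11.7% of all genes were. They were Atp5f1, Atp5s, Cox5a, Ndufb6, Ndufc1 and Sdhb. The medians also changed sign without wildtype vehicle library 3, to 0.04, 0.01, 0.06, 0.10 and 0.11. The members farthest from wildtype on the low side were Sdhb (−0.53), Cox6a2 (−0.48) and Cox6c (−0.43). On the high side they were Cox7a2 (0.46), Cox8a (0.44) and Ndufa13 (0.42).

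Members of a complex varied together across the libraries, and the complexes did so with each other. By median, all 5 complexes were lowest in mdx vehicle library 1 and highest in wildtype vehicle library 3. Correlations between complexes or with randomly drawn genes were not computed, so the values below are not shown to be particular to a complex. As a description, the median Pearson correlation of a member's log2 values with the mean of the rest of its complex was 0.86 over the 9 libraries. In all, 76 of 82 members had a value above 0.5. All genes of a library share its depth and its scaling factor. Without mdx vehicle library 1, which was left out after the data were seen, the median was 0.74 over 8 libraries and 69 members were above 0.5. The closest was Ndufa11 (0.997), a membrane subunit of complex I. The lowest were Cox6a1 (−0.18), Atp5s (−0.14), Cox8a (−0.04), Ndufa4l2 (0.04), Cox4i2 (0.46) and Ndufa13 (0.49). Of the 10269 genes outside the rule at 5 CPM or more, the 5 whose levels were most like the mean of the members were Mrpl55 (0.979), a mitochondrial ribosomal protein gene, Emc2 (0.972), LOC102641600 (0.968), Cyc1 (0.968) and Dlx6os1 (0.966). Cyc1 was at 288, 332 and 459.6 CPM in the wildtype libraries, 158, 355 and 284 in mdx vehicle, and 312, 359 and 344 with GTx-026, and so shared the low mdx vehicle library 1 and the high wildtype vehicle library 3.

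Promoters were compared because most members varied together and Cox6a1 and Cox8a did not. RefSeq promoter windows on GRCm38.p6, 250 bases before to 50 after the start, matched 67 of 82 members and 10220 tested genes, and were searched on both strands. The full NRF1 word, which stands in capitals in Ndufa11 here, was in 5 members (7.46%) and 2.15% of tested genes, and the shorter GCATGCGC, which it contains, in 10 members (14.9%) and 5.49%. The ERR word AAGGTCA was in 8 members (11.9%) and 4.05% of tested genes, the ETS word CCGGAAG bound by GABP in 16 (23.9%) and 18.2%, and the YY1 word AAGATGGC in 11 (16.4%) and 5.27%. The YY1 word was in 7 complex I and 4 complex V windows. Members had 1.09 windows a gene on average and tested genes 1.26. The upstream 250 bases are shown for Ndufa11, the member closest to its complex, for Cox8b, a muscle form that followed its complex, and for Cox8a and Cox6a1, which did not. Ndufa11 is at chr17:56717512-56717761 (plus strand), Cox8b at chr7:140900447-140900696 (minus), Cox8a at chr19:7217617-7217866 (minus) and Cox6a1 at chr5:115348959-115349208 (minus). Capitals mark the NRF1 word in Ndufa11 and Cox6a1 and, near the end of Cox6a1, the ETS word on the opposite strand.
Ndufa11: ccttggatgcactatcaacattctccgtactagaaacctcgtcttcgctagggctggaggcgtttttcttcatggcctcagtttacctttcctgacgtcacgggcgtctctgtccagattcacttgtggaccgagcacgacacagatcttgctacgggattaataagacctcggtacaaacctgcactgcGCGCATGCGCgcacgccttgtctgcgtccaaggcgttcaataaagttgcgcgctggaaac
Cox8b: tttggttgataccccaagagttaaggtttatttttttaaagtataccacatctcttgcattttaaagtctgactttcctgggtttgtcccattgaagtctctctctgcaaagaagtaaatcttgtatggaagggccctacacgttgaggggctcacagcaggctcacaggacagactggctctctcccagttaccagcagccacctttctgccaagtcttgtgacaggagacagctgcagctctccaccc
Cox8a: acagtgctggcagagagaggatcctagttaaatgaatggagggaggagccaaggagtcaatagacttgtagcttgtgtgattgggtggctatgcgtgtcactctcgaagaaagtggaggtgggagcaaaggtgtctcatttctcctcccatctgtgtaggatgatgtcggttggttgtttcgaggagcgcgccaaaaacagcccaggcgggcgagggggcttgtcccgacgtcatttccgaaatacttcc
Cox6a1: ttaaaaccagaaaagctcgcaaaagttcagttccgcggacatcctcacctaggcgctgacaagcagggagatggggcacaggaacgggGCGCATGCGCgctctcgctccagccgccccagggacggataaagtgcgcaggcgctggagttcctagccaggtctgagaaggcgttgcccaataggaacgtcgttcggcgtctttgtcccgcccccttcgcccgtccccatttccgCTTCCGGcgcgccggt
In these windows the NRF1 word was shared by the member most like its complex and by the member least like it. The window of Cox8b held none of the words searched. That of Cox8a held the ETS word, but not wholly within the printed bases. A match is a run of letters, and binding was not measured here.

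Genes that build and feed the complexes were followed as lists. Of the complex I assembly factors, which help put the complex together, 12 of 13 measured were lower in mdx vehicle (median −0.32, or −0.14 without mdx vehicle library 1), and 0 passed by limma. Ndufaf6, the one with the lowest value, was at 26 ± 6.92 CPM in wildtype, 14.8 ± 3.76 in mdx vehicle and 16.7 ± 1.5 with GTx-026 (SD, n = 3; −0.77, adjusted p = 0.209). Of the complex IV assembly factors 16 of 20 were lower (median −0.08, or 0.02 without mdx vehicle library 1), 0 passed, and they differed among themselves. Coa5 was at 143, 191 and 192 CPM in the wildtype libraries, 106, 119 and 126 in mdx vehicle, and 129, 131 and 129.7 with GTx-026 (−0.57 in mdx vehicle, adjusted p = 0.171), while Cox18, which inserts a core subunit into the membrane, was at 5.86, 5.64 and 7.24 CPM in the wildtype libraries, 8.21, 11.9 and 8.73 in mdx vehicle, and 10.9, 10.1 and 11.5 with GTx-026 (0.54, adjusted p = 0.262). For both genes, the largest fall and the largest rise of their list in mdx vehicle, all the mdx libraries, treated or not, lay outside the wildtype range. Of all genes 8.57% lay wholly below wildtype and 8.11% wholly above it in mdx vehicle. With GTx-026 these shares were 9.26% and 11.7%, and the share for both mdx groups together was not computed. Lower too were 5 of 6 factors of complex III (median −0.27), 3 of 3 of complex V (−0.33, or −0.22 without mdx vehicle library 1) and 2 of 2 measured of complex II (−0.10), with 0 called in each.

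Electron carriers and their makers, such as cytochrome c (Cycs) and the genes of ubiquinone synthesis, were lower in 15 of 16 (median −0.43, or −0.18 without mdx vehicle library 1). Cycs was at 379, 441 and 519.8 CPM in the wildtype libraries, 254, 439 and 306 in mdx vehicle, and 379, 471 and 397 with GTx-026. Adck3, a regulator of ubiquinone synthesis, was at 615, 1059 and 1082 CPM in the wildtype libraries, 204, 794 and 658 in mdx vehicle, and 388, 712 and 1236 with GTx-026. All 13 tricarboxylic acid cycle genes were lower (median −0.39, or −0.18), with Suclg2, a subunit of succinyl-CoA ligase, at 68, 83.7 and 90.7 CPM in the wildtype libraries, 37.8, 51 and 44.1 in mdx vehicle, and 40.1, 45 and 57 with GTx-026 (−0.85, adjusted p = 0.0961). Of the genes that shape the cristae 10 of 11 were lower (median −0.355, or −0.19). In these 3 lists 0 genes passed by limma, and for GTx-026 against vehicle in mdx mice the medians were 0.22, 0.28 and 0.22, or 0.01, 0.03 and 0.02 without mdx vehicle library 1.

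Regulators of these genes were lower in 13 of 17 (median −0.20, or −0.04 without mdx vehicle library 1), and 0 passed. Perm1, a muscle coactivator that works with PGC-1α and ERRα, was at 108, 192 and 259 CPM in the wildtype libraries, 41.6, 165 and 96.8 in mdx vehicle, and 112, 129 and 186 with GTx-026 (−0.99 in mdx vehicle and 0.67 in GTx-026 against mdx vehicle, or −0.47 and 0.14 without mdx vehicle library 1). Like most subunits it was lowest in mdx vehicle library 1 and highest in wildtype vehicle library 3. Ppargc1a, which encodes PGC-1α, was at 14.5, 22.8 and 27.6 CPM in the wildtype libraries, 8.88, 35.9 and 18 in mdx vehicle, and 17.5, 22.1 and 24.9 with GTx-026. Of 5 subunit and partner genes outside the symbol rule 4 were lower in mdx vehicle. The exception was Atpif1, the inhibitor of ATP synthase, at 24.5, 21.8 and 20.6 CPM in the wildtype libraries, 36.1, 28.3 and 30.1 in mdx vehicle, and 30.2, 36.5 and 31.9 with GTx-026 (0.48 in mdx vehicle, limma adjusted p = 0.227; 0.54 in mdx GTx-026 against wildtype, adjusted p = 0.112). All 6 mdx libraries lay above all the wildtype ones. Of all genes 8.11% lay wholly above wildtype in mdx vehicle and 11.7% with GTx-026.

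In the authors' deposited table, which tests each sequence record on its own and without adjustment, 0 of 136 records of the members had a p-value under 0.05 in mdx vehicle against wildtype vehicle, where 6.01% of all records did. For treated against untreated mdx mice the authors' deposited table has 4 such records, all of Ndufa13 and Ndufb5, where 1.94% of all records pass. Against wildtype vehicle it has 2, both of Ndufa13, where 9.32% pass.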

How the data were processed

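Polyadenylated RNA of gastrocnemius was sequenced in 9 libraries. Tools named by the submitters' processing notes, in no stated order or role, were DESeq2 1.6.3, HTSeq 0.6.1p1, TopHat2 2.0.13, SAMtools 0.1.19 and Bowtie2 2.2.4, with GRCm38.p3 as the build. Neither the annotation nor the use of strand in counting is given in the sources used here. Each deposited signal is a scaled read number per sequence record, 46442 records in all, with a single factor per library. The authors also deposited group means as signal, the ratio of those means and an unadjusted p-value per record. Values were within 0.1 read of whole multiples of a step per library, which gave the estimated reads, but were not accepted as counts, so no count test was run. The smallest signal above 0 was 10, and 101 to 355 records were listed at 0 in a whole group, so a record set to 0 can lower its gene's sum.

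Records were summed by symbol, and 15372 symbols above 0 in all libraries were tested (221 were not; 4 records without a symbol, 0.000646% of the signal, were left out). Libraries were rescaled by an unweighted trimmed mean of log ratios (30% and 5% trimmed; factors 0.874 to 1.303). Tests used limma 3.58.1 in R 4.3.3 on log2(CPM + 1) with a trended prior, all 9 libraries in 1 model (6 residual and 3.54 prior degrees of freedom), two-sided, Benjamini-Hochberg adjusted over all tested symbols, with a threshold of 0.05. The step was tested on simulated data. Medians over members are descriptions with no test. Members, lists and alternatives were chosen with earlier results of these data known. Cox5a, Cox6c, Ndufb5, Ndufb6, Ndufs5, Ndufs6, Ndufa11, Sdhd, Cycs and Ppargc1a were named after their values were seen. The other named members were set by a rule. It took the isoform pairs, the 3 members with the highest mean CPM of each complex, and its highest and lowest fold change in each comparison. A gene that this rule names is not reported here, though medians, sums and counts include it. Gene positions and exon lengths are from GENCODE M21. Figures were drawn in Python 3.11.15 with matplotlib 3.10.9.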

Additional observations from a re-analysis of the deposited data

How the results depend on the processing

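No paired analysis was possible because the columns carry only a group and a number that pairs nothing, and the labels give no shared replicate numbers. Under all 19 alternatives 0 members passed by limma in any comparison. At an unadjusted p under 0.05 they numbered 0 to 43 in mdx vehicle against wildtype vehicle, 0 to 29 in GTx-026 against mdx vehicle, and 0 to 3 in GTx-026 against wildtype vehicle. All tested genes at that p numbered 1133 to 2839, 393 to 879 and 1404 to 2422 over the same settings. The 43 and 29 members came without mdx vehicle library 2, where 2839 and 806 genes were at that p. Leaving out a library from a group of 3 leaves 2, and the precision is limited by the number of libraries and by the scaling of mdx vehicle library 1.

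Among all genes, 75 were called in mdx vehicle against wildtype vehicle, 17 when only those groups were fitted, 48 with the highest record per symbol, and 9 to 102 with a library left out. In GTx-026 against mdx vehicle 2 were called, 4 with the deposited scaling, 1 with a pseudocount of 4, 1 with only those groups, and 0 to 2 with a library left out. In GTx-026 against wildtype vehicle 253 were called, 451 with only those groups, and 65 to 401 with a library left out. The causes were not tested.

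Named members close to 0 changed sign, and with the deposited scaling the values of all genes moved as well. With the deposited scaling, Atp5g2 and Atp5l were at 0.094 and 0.083 in mdx vehicle against wildtype vehicle, and Atp5s at −0.0052 in GTx-026 against mdx vehicle. In GTx-026 against wildtype vehicle that scaling gave 0.036 for Atp5a1, 0.098 for Atp5g1, 0.11 for Atp5g3, 0.042 for Cox4i2, 0.025 for Cox7b and 0.040 for Ndufa4l2. It also gave 0.040 for Sdha, 0.043 for Sdhc and 0.0099 for Uqcrb. Median-of-ratios scaling gave −0.0051 for Ndufa4, and the highest record gave 0.0094 for Atp5g3.

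With 1 library left out, the log2 fold change in mdx vehicle against wildtype vehicle ran from −0.35 to 0.22 for Atp5e, −0.16 to 0.025 for Atp5g2, −0.33 to 0.19 for Atp5l and −0.0027 to 0.85 for Cox6a1. The span was −0.69 to 0.069 for Cox7a1, −0.093 to 0.44 for Cox7a2, −0.24 to 0.13 for Ndufa4l2 and −0.18 to 0.15 for Uqcrh. With 1 library left out, the log2 fold change in GTx-026 against mdx vehicle ran from −0.068 to 0.39 for Atp5f1, −0.067 to 0.20 for Atp5s, −0.40 to 0.19 for Cox6a1 and −0.023 to 0.36 for Cox7b. The span was −0.075 to 0.45 for Cox8b, −0.26 to 0.19 for Ndufa4l2, −0.093 to 0.34 for Ndufc1 and −0.10 to 0.50 for Sdhb. For others it was −0.064 to 0.38 for Sdhc and −0.023 to 0.44 for Uqcrc2. With 1 library left out, the log2 fold change in GTx-026 against wildtype vehicle ran from −0.24 to 0.061 for Atp5a1, −0.11 to 0.16 for Atp5g1, −0.090 to 0.11 for Atp5g3 and −0.0075 to 0.19 for Cox4i1. The span was −0.16 to 0.054 for Cox4i2, −0.075 to 0.78 for Cox6a1, −0.044 to 0.26 for Cox7a1 and −0.24 to 0.10 for Cox7b. For others it was −0.088 to 0.28 for Ndufa10, −0.074 to 0.16 for Ndufa4, −0.25 to 0.072 for Ndufa4l2 and −0.27 to 0.025 for Ndufv1. It was −0.24 to 0.067 for Sdha, −0.15 to 0.075 for Sdhc, −0.017 to 0.23 for Uqcr10 and −0.11 to 0.24 for Uqcrc1. It ran from −0.31 to 0.0067 for Uqcrc2 and −0.23 to 0.031 for Uqcrfs1. Over all settings the lowest limma adjusted p of a named member was 0.119.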
